A study of Mus musculus with 38 samples.

Results

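The claudins are the membrane proteins that form the strands of epithelial tight junctions, and 10 of them were examined in mouse thyroids: Cldn1, Cldn2, Cldn3, Cldn4, Cldn7, Cldn8, Cldn10, Cldn12, Cldn16 and Cldn18. They were chosen by name as claudins of thyroid and other epithelial junctions. Each was read from the probe set that carries its symbol alone and had the highest mean signal, and the 10 stand among 19938 genes named on the array. For each of 38 mice, RNA from a piece of the thyroid was hybridised to 1 Affymetrix Mouse Gene 1.0 ST array, and the mice are named by their label, such as M_940. The tumour-prone animals were FVB/N transgenics with the human BRAFV600E cDNA under the bovine thyroglobulin promoter, which restricts the transgene to follicular cells. BRAF(+) mice expressed the transgene RNA and came from lines tg2 and tg3. BRAF(-) mice had no such RNA and carried no transgene, except for 1 mouse of line tg1 with a transgene that was not expressed. By the study, all but 1 of the BRAF(+) thyroids without a malignant lesion came from tg3, whereas most BRAF(-) thyroids came from tg2. The models held no term for line, so that line and BRAF status cannot be fully told apart. The groups were 10 papillary thyroid carcinomas (PTC) and 10 borderline lesions (BL), all from BRAF(+) mice. Benign hyperplastic lesions (BHL) came from 4 BRAF(+) and 4 BRAF(-) mice, and asymptomatic thyroids (AT) from 5 of each status. Ages by group, from the labels, ran from 6 to 21 months in PTC, 4 to 21 in BL, 4 to 11 in BRAF(+) BHL, 6 to 24 in BRAF(-) BHL, 7 to 11 in BRAF(+) AT and 4 to 12 in BRAF(-) AT. For BL and BHL the oldest of these ages lie above the ranges given in the study's supplement, and the labels' ages were kept. Males numbered 2 of 10 in PTC, 2 of 10 in BL, 1 of 4 in each BHL group, 1 of 5 in BRAF(+) AT and 2 of 5 in BRAF(-) AT.

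A claudin crosses the membrane several times, and its extracellular loops meet those of claudins on the neighbouring cell. Some claudins seal the space between cells, whereas others line it with pores that pass selected ions or water, so that the mixture of claudins sets what an epithelium lets through. In the thyroid, tight junctions close off the follicle lumen, where thyroglobulin is stored and iodinated. The cytoplasmic tails bind scaffold proteins such as the zonula occludens proteins, and the tight junction lies above the adherens junction and the desmosomes.

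Values are log2 signals, so that a difference of 1 is a 2-fold difference, and a level is not compared between genes because each probe set responds in its own way. Differences, standard errors (SE) and adjusted p-values came from limma models that held sex, and a gene was called where its p-value adjusted over all 35556 probe sets by Benjamini and Hochberg's method was under 0.05. All 10 claudins were tested, with no filter on low signals. The tissue carried Tg and Epcam in every mouse: Tg, which encodes thyroglobulin, lay at 13.30 to 13.74, and the epithelial adhesion gene Epcam at 9.59 to 10.43. Not every listed thyrocyte marker was as steady, since Slc26a4 ran from 4.01 to 7.62 with a mean of 4.68, below the array medians. Other tissue was present in some samples, since the parathyroid hormone gene Pth ran between 3.002 and 12.95 and the muscle gene Acta1 between 6.13 and 12.76. Array medians lay between 6.00 and 6.15. In whole tissue, fewer cells of a type and less RNA per cell cannot be told apart. No batch is named in the labels.

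The letters upstream of the start sites are shown for the claudin that followed BRAF status most clearly, Cldn2, and for Cldn3, Cldn4 and Cldn7, whose signals moved together from mouse to mouse (both described further on). The windows are the 250 bases before a RefSeq transcription start in mouse build GRCm38.p6, written 5′ to 3′ on the strand of the gene. The RefSeq promoter table matched 9 of the 10 claudins with 14 windows, and Cldn8 is named only. Capitals mark matches, on either strand, to 6 motifs: the AP-1 site TGANTCA, the ETS core CCGGAAG, the NKX2-1 core CAAGTG, the Snail-type E-box CAGGTG, the GRHL site AACNNGTT and the TATA box TATAAA.
Cldn2 (chrX:139800558-139800807, plus strand): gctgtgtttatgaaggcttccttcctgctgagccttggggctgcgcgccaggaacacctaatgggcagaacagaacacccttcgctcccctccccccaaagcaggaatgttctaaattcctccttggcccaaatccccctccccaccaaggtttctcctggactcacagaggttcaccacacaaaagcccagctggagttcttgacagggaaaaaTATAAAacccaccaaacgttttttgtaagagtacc
Cldn3 (chr5:134985964-134986213, plus strand): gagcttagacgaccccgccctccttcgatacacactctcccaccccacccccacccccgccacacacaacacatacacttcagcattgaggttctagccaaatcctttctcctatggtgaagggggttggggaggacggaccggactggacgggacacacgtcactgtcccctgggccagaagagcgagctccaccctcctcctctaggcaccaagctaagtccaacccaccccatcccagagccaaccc
Cldn4 (chr5:134946935-134947184, minus strand): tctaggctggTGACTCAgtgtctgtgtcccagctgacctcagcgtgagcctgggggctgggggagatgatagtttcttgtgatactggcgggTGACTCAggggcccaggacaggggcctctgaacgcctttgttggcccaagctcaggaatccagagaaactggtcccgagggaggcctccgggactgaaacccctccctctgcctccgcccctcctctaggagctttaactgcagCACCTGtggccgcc
Cldn7 (chr11:69964529-69964778, plus strand): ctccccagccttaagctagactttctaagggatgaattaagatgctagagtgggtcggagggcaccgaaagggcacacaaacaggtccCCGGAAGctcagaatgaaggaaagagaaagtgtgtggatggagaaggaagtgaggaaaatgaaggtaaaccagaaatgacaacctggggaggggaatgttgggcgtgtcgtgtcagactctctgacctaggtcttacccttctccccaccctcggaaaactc
The Cldn2 window held a TATA box 35 to 30 bases before the start and no other match. Of 32851 windows of this length, 12.4% held TATAAA. The Cldn3 window held none of the 6 motifs. The Cldn4 window held 2 AP-1 sites, a motif found in 6.75% of all windows, and 1 CAGGTG, found in 17.2%. The Cldn7 window, that of the more upstream of its 2 starts, held the ETS core, which 6.91% of all windows held. The window of its other start, not printed, held an ETS core, an NKX2-1 core, found in 11.6% of all windows, and 2 CAGGTG. No letters of 2 motifs overlapped in the windows shown. A match is a stretch of letters and not a measured site. The windows of Cldn3 and Cldn4 both lie on chromosome 5, at the positions given above.

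Cldn2, which forms pores for small cations and water in leaky epithelia such as the kidney proximal tubule, was higher in BRAF(+) than in BRAF(-) thyroids that held no malignant lesion. In the 9 BRAF(+) thyroids its signal was 8.01, 7.68, 7.15 and 7.69 in BHL and 7.60, 6.03, 5.55, 6.99 and 7.28 in AT. In the 9 BRAF(-) thyroids it was 5.45, 5.05, 5.29 and 5.29 in BHL and 5.22, 5.05, 5.18, 5.24 and 5.55 in AT. The BRAF(+) thyroids all lay above the BRAF(-) ones, but the lowest BRAF(+) value, of AT mouse M_779, passed the highest BRAF(-) value, of AT mouse M_957, by only 0.0027. The difference was 1.82 (SE 0.24, 95% interval 1.32 to 2.32), which is 3.53-fold, with an adjusted p of 0.000398. All BRAF(-) values of Cldn2 lay below the array medians and may lie near background, for which the deposited values hold no measure, so that this fold and the other folds of Cldn2 against BRAF(-) thyroids may understate the difference. Cldn2 was the only 1 of the 10 claudins called for BRAF status in the 18 non-malignant thyroids, where 4.1% of all probe sets were called. The median difference of the 10 was 0.14, against 0.02 over all probe sets.

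Within each lesion type the direction of Cldn2 was the same. Among BHL the difference between BRAF(+) and BRAF(-) thyroids was 2.36 (SE 0.30, 5.14-fold against signals that may lie near background, adjusted p 7.08e-06), and all 4 BRAF(+) values lay well above every BRAF(-) value. Cldn2 was again the only 1 of 10 called, with 6.62% of probe sets called. Among AT the difference was 1.39 (SE 0.27, 2.61-fold with the same limit, adjusted p 0.009), at a background of 0.256%, and no other claudin was called. The BRAF(+) AT were spread widely, with mice M_523 and M_779 close to the BRAF(-) range and the other 3 far above it. The interaction, the BRAF difference in BHL minus that in AT, was 0.99 (95% interval 0.09 to 1.90), with an adjusted p of 0.53. None of the 10 claudins was called for it, at a background of 0.0281%. Of the 10, 1 had an unadjusted p under 0.05, as had 2986 of all probe sets. The Cldn2 call in AT was lost without AT mouse M_1003 (adjusted p 0.061) and without AT mouse M_948 (0.064), both BRAF(+) mice with high values. It was also lost in females only (1.53, adjusted p 0.065), in a model of only the groups compared (1.35, adjusted p 0.27), and with the muscle and adipocyte means (1.17, adjusted p 0.084) or the macrophage mean (1.19, adjusted p 0.093) as covariates.

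In the lesions Cldn2 had a lowest, median and highest signal of 7.05, 7.45 and 7.94 in the 10 PTC and of 6.37, 7.24 and 7.77 in the 10 BL, against 5.05, 5.22 and 5.55 in the 5 BRAF(-) AT. No lesion overlapped the BRAF(-) AT, and over the whole series the 29 BRAF(+) thyroids lay above the 9 BRAF(-) ones. The gap between the lowest BRAF(+) and the highest BRAF(-) value was only 0.0027. How many of all probe sets separate these mice is not given here. PTC exceeded BRAF(-) AT by 2.23 (SE 0.24, 4.69-fold, adjusted p 5.12e-08) and BL did so by 1.86 (SE 0.24, 3.63-fold, adjusted p 2.79e-06), both folds against signals that may lie near background. These comparisons share the BRAF(-) AT mice. The means from high to low were 7.63 ± 0.35 in BRAF(+) BHL (SD, n = 4), 7.53 ± 0.35 in PTC (n = 10), 7.16 ± 0.45 in BL (n = 10), 6.69 ± 0.86 in BRAF(+) AT (n = 5), 5.27 ± 0.17 in BRAF(-) BHL (n = 4) and 5.25 ± 0.18 in BRAF(-) AT (n = 5). Of the neighbours in that order only BRAF(-) BHL and BRAF(+) AT differed beyond the threshold (-1.41, 95% interval -1.99 to -0.83, adjusted p 0.029). PTC minus BRAF(+) BHL was -0.11 (-0.63 to 0.40), PTC minus BL was 0.37 (-0.02 to 0.75), and BRAF(-) BHL minus BRAF(-) AT was -0.02 (-0.60 to 0.56). BL minus BRAF(+) AT was 0.47 (0.00 to 0.95, adjusted p 0.21). PTC exceeded BRAF(+) AT by 0.84 (SE 0.23, adjusted p 0.016), at a background of 14.9%, and Cldn2 was the only claudin called there. That difference was 0.71 without mouse M_523 (adjusted p 0.062), 0.54 without mouse M_779 (0.11) and 0.28 without both (0.50). The call was also lost in females only (0.69, adjusted p 0.11) and in a model of only the groups compared (0.84, adjusted p 0.054). BRAF(+) BHL exceeded BRAF(+) AT by 0.96 (SE 0.29) and did not pass the threshold (adjusted p 0.095).

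**Figure D1:**
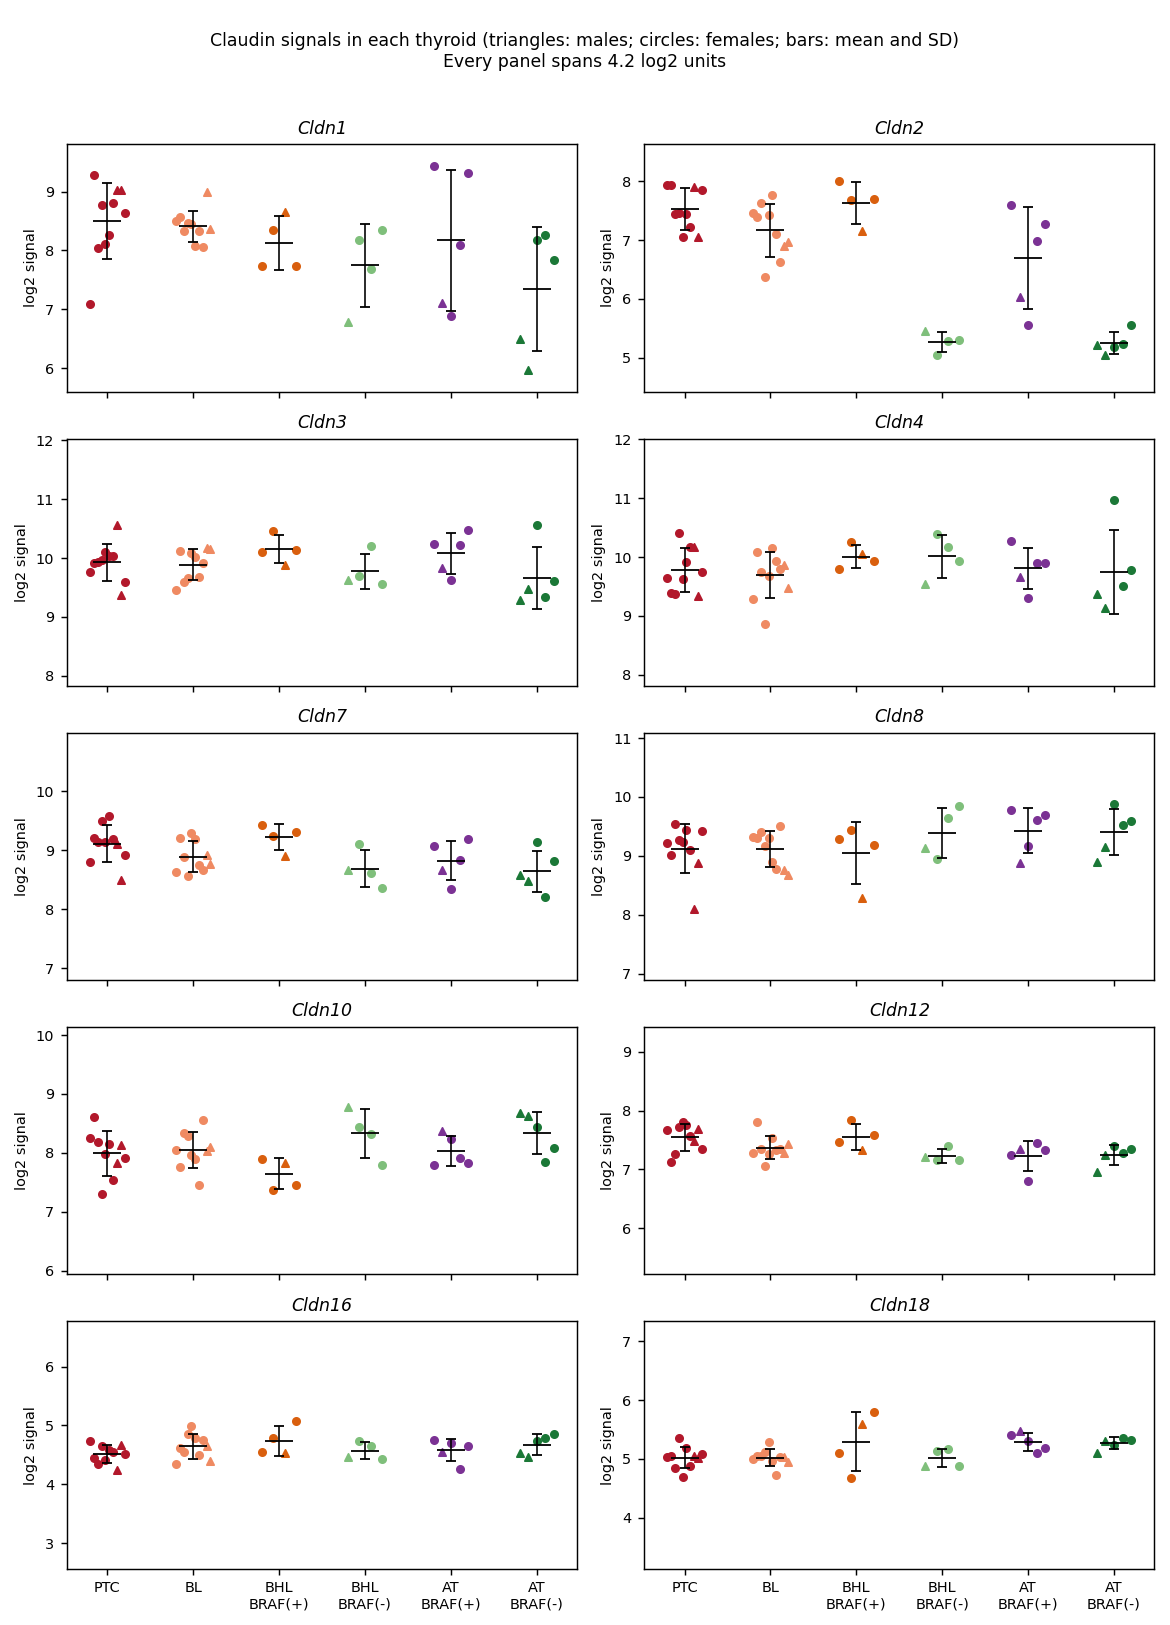
Log2 signal of each claudin in each of the 38 thyroids (vertical axis, every panel spanning the same number of log2 units) by lesion and BRAF status, with bars for the mean and SD of each group, triangles for males and circles for females. Cldn2 lies between 5.05 and 5.55 in the 9 BRAF(-) thyroids and at 5.55 to 8.01 in the 29 BRAF(+) ones, whereas the other claudins overlap between BRAF(+) and BRAF(-) thyroids.

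The genes whose signals followed Cldn2 most closely after group means and sex were taken out were St8sia6, which encodes a sialyltransferase (r = 0.86 over 38 mice), and Lratd1 (r = 0.86). These were picked as the highest of all named genes, so the values are a description with no test. Their r was 0.81 and 0.78 without the 2 mice farthest from the Cldn2 median. In BRAF(+) AT mice M_1003, M_948, M_945, M_523 and M_779, from high to low Cldn2, St8sia6 was at 9.76, 9.77, 9.35, 7.40 and 7.31. Lratd1 was at 9.66, 9.53, 9.55, 7.64 and 6.59 in the same mice. Mice M_523 and M_779 were the lowest of the BRAF(+) AT for each of these genes, which follows in part from picking the genes over these same mice.

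Several tissue markers differed between BRAF(+) and BRAF(-) non-malignant thyroids, those of parathyroid and muscle through a few mice. Against the 4.1% of all probe sets called, 4 of 8 adipocyte markers were lower in BRAF(+) thyroids and none higher, with a median difference of -0.74, and the summed level, as a mean of log2 signals, ran from 7.83 to 8.94 in BRAF(+) BHL and 8.29 to 9.25 in BRAF(+) AT, against 8.85 to 9.81 in BRAF(-) BHL and 9.10 to 9.69 in BRAF(-) AT. None of 5 brown adipocyte markers was called, but their median difference was -1.28, and their mean ran from 6.25 to 9.50 in BRAF(+) BHL and 7.81 to 9.36 in BRAF(+) AT, against 8.31 to 10.10 in BRAF(-) BHL and 7.78 to 9.83 in BRAF(-) AT. Of 6 airway markers 1 was lower, Scgb1a1 of the club cell, and their mean ran from 4.96 to 6.58 in BRAF(+) BHL and 5.64 to 6.97 in BRAF(+) AT, against 6.98 to 8.23 in BRAF(-) BHL and 6.39 to 8.32 in BRAF(-) AT. None of 2 parathyroid and 12 muscle markers was called, with median differences of -2.15 and -1.14. The parathyroid mean reached at most 4.93 in BRAF(+) BHL and 5.82 in BRAF(+) AT, against 11.90 in BRAF(-) BHL and 11.29 in BRAF(-) AT. In the same groups the muscle mean reached at most 5.57 and 5.36, against 9.84 and 9.80. The high muscle means were those of BHL mouse M_764 and AT mouse M_940, with the other BRAF(-) mice at 5.20 to 5.68. The high parathyroid means were those of BHL mice M_946 and M_930 (8.99) and AT mouse M_524, with the other BRAF(-) mice at 4.54 to 5.67. In the BRAF(+) lesions the muscle mean reached 9.16 in PTC and 10.86 in BL, and the parathyroid mean 11.30 and 10.95. With the muscle and adipocyte means as covariates the Cldn2 difference was 1.54 (adjusted p 0.21), and with the parathyroid and airway means it was 1.44 (adjusted p 0.078). Over all probe sets the first of these models called 0.0422% and the second 0.177%. With the pan-epithelial mean as a covariate it was 1.75 (adjusted p 0.0014). In PTC and BL against BRAF(-) AT, and in BRAF(+) against BRAF(-) BHL, Cldn2 kept its call with each of these covariates. Among AT it lost the call with the muscle and adipocyte means. The part of the other tissues in the difference over the 18 thyroids was not tested.

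Cldn1, a sealing claudin needed for the skin barrier, was higher in PTC than in BRAF(-) AT. It was widely spread within the AT groups, with an SD of 1.19 in BRAF(+) AT and 1.05 in BRAF(-) AT (n = 5 each). Its lowest, median and highest signals were 7.09, 8.70 and 9.29 in PTC and 8.06, 8.40 and 8.99 in BL. The BRAF(-) AT had 6.496, 5.97, 8.18, 8.27 and 7.84, the 2 lowest being both males of the group. The values of 6 of the 10 PTC and 8 of the 10 BL lay above every BRAF(-) AT value. PTC exceeded BRAF(-) AT by 1.09 (SE 0.38, 2.13-fold, adjusted p 0.0399) and was called, whereas BL exceeded them by nearly as much (0.999, SE 0.38) and was not (adjusted p 0.079). PTC and BL differed by 0.09 (95% interval -0.53 to 0.71). The call for PTC was lost in females alone, where the difference was 0.28 (adjusted p 0.69), and without either male BRAF(-) AT mouse, at 0.80 without mouse M_771 (adjusted p 0.15) and 0.93 without mouse M_524 (0.12). It was also lost without any 1 of PTC mice M_347, M_358, M_415, M_686 and M_700, with differences of 0.97 to 1.07. Further models without the call were that of only the groups compared (adjusted p 0.075), the unmoderated one (0.052), and those with the epithelial mean (0.73, adjusted p 0.15), the muscle and adipocyte means (1.03, adjusted p 0.11) or the parathyroid and airway means (0.88, adjusted p 0.13) as covariates.

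In the non-malignant thyroids Cldn1 had 7.73, 8.35, 8.65 and 7.74 in BRAF(+) BHL and 9.44, 7.11, 6.88, 8.09 and 9.32 in BRAF(+) AT, against 6.78, 8.18, 7.69 and 8.35 in BRAF(-) BHL and the BRAF(-) AT values above. The groups overlapped, with 4 of 9 BRAF(+) values above all BRAF(-) values, and the difference of 0.50 (95% interval -0.19 to 1.20) was not called (adjusted p 0.51). Among the BRAF(+) AT the mice stood in the same order for Cldn1 as for Cldn2. Over all 38 mice, with group means and sex taken out, Cldn1 and Cldn2 had r = 0.28 (rho = 0.12, adjusted p 0.53 for r over the 45 pairs of claudins, permutation within groups).

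Cldn1 moved from mouse to mouse with genes of macrophages and dendritic cells. The 2 named genes most like it were Itgax, which encodes CD11c (r = 0.92 over 38 mice), and Fcgr2b, an inhibitory Fc receptor (r = 0.90), both picked as the highest of all genes. With the mean of 8 macrophage markers it had r = 0.85 and rho = 0.85, and r = 0.80 without the 2 mice farthest from the median of that mean. In BRAF(-) AT the macrophage mean was 7.28 and 7.44 in males M_524 and M_771 and 7.96 to 8.32 in the 3 females. It ranged over 8.08 to 8.99 in PTC and 8.21 to 9.02 in BL, against 7.28 to 8.32 in BRAF(-) AT, and 7 of the 8 markers were called as higher in PTC than in BRAF(-) AT and 4 of 8 as higher in BL, against 18.8% and 11.5% of all probe sets called in either direction. With the macrophage mean as a covariate, a model added after these values were seen, the Cldn1 difference between PTC and BRAF(-) AT was -0.24 (adjusted p 0.62). The macrophage mean also had r = 0.50 with Cldn4, 0.48 with Cldn3, 0.31 with Cldn7, 0.28 with Cldn2, 0.27 with Cldn12 and 0.09 with Cldn8. With Cldn10, Cldn16 and Cldn18 its r was -0.48, -0.17 and -0.11. Which cells carried the Cldn1 signal was not tested.

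**Figure D2:**
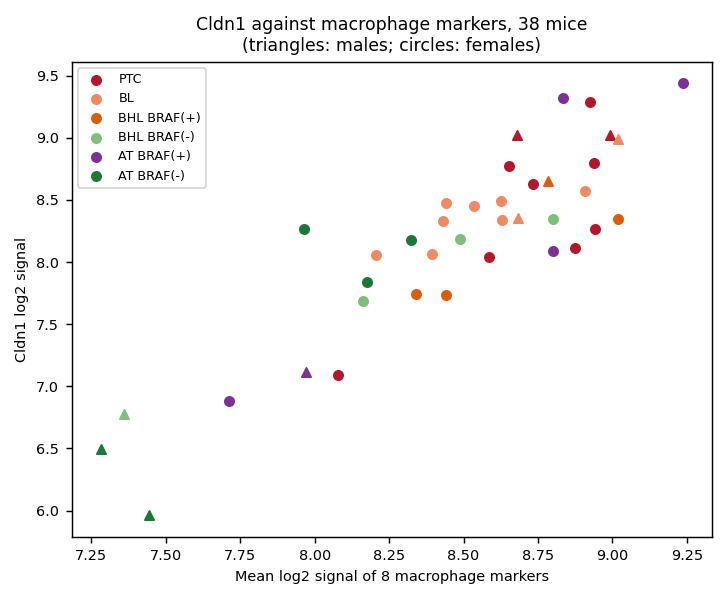
Cldn1 log2 signal (vertical axis) against the mean log2 signal of 8 macrophage markers (horizontal axis) in each of the 38 mice, coloured by group, with triangles for males and circles for females. The male BRAF(-) mice M_524, M_771 and M_701 are the lowest for both, and after group means and sex were taken out r was 0.85.

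Cldn8, which takes part with Cldn4 in the chloride pathway of the kidney collecting duct, differed between the sexes. In the 9 males its signal ran from 8.10 to 9.14 with a median of 8.88, and in the 29 females from 8.78 to 9.88 with a median of 9.32. By their labels the males were 4 to 11 months old and the females 7 to 24, so that sex and age were partly mixed. In 5 of the 6 groups every male lay below every female. Male values were 8.10 and 8.88 in PTC, 8.76 and 8.67 in BL, 8.29 in BRAF(+) BHL, 9.13 in BRAF(-) BHL, 8.88 in BRAF(+) AT and 8.90 and 9.14 in BRAF(-) AT. In BRAF(-) BHL the male, at 9.13, lay above 1 of 3 females, mouse M_764 at 8.94, by its label the oldest mouse of the series. With the 6 groups kept in the model, males were lower by an estimate of -0.66 (SE 0.10, 95% interval -0.85 to -0.46, 0.634-fold, adjusted p 6.12e-05). No other claudin was called, at a background of 3.22% of probe sets. In the 18 non-malignant thyroids alone the estimate was -0.69 (SE 0.14, adjusted p 0.0495), at a background of 0.233%. This comparison was made after the values were seen. The call held in all 11 other settings tried, with estimates of -0.75 to -0.64, and without each of the 38 mice in turn.

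**Figure D3:**
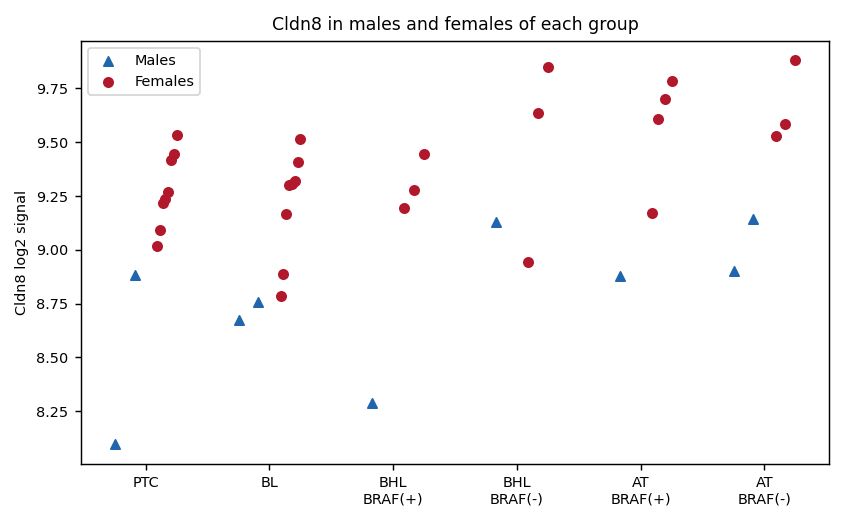
Cldn8 log2 signal (vertical axis) in males (triangles, left in each group) and females (circles, right) of the 6 groups, 1 symbol per mouse, ordered by value within each sex. Every male lies below every female in 5 of the 6 groups, the exception being BRAF(-) BHL.

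With sex in the model Cldn8 was lower in the lesions than in BRAF(-) AT. Its lowest, median and highest signals were 8.10, 9.23 and 9.54 in PTC and 8.67, 9.23 and 9.51 in BL, against 8.90, 9.53 and 9.88 in BRAF(-) AT. PTC differed from BRAF(-) AT by -0.42 (SE 0.14, 0.748-fold, adjusted p 0.032) and BL by -0.43 (SE 0.14, 0.743-fold, adjusted p 0.041). The groups overlapped, with 2 of 10 PTC and 4 of 10 BL below every BRAF(-) AT value. Without the sex term the differences were -0.29 for PTC (adjusted p 0.34) and -0.30 for BL (adjusted p 0.36), and in females alone they were -0.39 for PTC (adjusted p 0.14) and -0.46 for BL (adjusted p 0.11). The PTC call was also lost without mouse M_686, M_771 or M_940 (adjusted p 0.074, 0.070 and 0.12), and the BL call without mouse M_80, M_360, M_524, M_528, M_530, M_771, M_940 or M_957 (adjusted p up to 0.14). Of 8 adipocyte markers 6 were lower in PTC and 5 in BL than in BRAF(-) AT, where 18.8% of all probe sets were called for PTC and 11.5% for BL. Of 5 brown adipocyte markers 4 were lower in PTC and 2 in BL. With the muscle and adipocyte means as covariates the Cldn8 differences were -0.29 for PTC (adjusted p 0.20) and -0.31 for BL (adjusted p 0.22). The PTC call was lost too with the epithelial mean (adjusted p 0.089) or the macrophage mean (0.079). The BL call was lost too with the epithelial mean (0.055), the macrophage mean (0.076), the parathyroid and airway means (0.056), array weights (0.071) and only the groups compared (0.052). In the non-malignant thyroids BRAF(+) and BRAF(-) mice differed in Cldn8 by -0.21 (95% interval -0.48 to 0.05, adjusted p 0.43).

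Altogether 3 of the 10 claudins were called between PTC and BRAF(-) AT, with Cldn1 and Cldn2 higher and Cldn8 lower, at a background of 18.8%, and 2 of 10 between BL and BRAF(-) AT, with Cldn2 higher and Cldn8 lower, at a background of 11.5%. The median difference of the 10 was 0.12 for PTC and 0.03 for BL, against -0.02 over all probe sets in both. None was called between PTC and BL, where 0% of probe sets passed and none of the 10 had an unadjusted p under 0.05, although 774 probe sets had. None was called between BRAF(+) BHL and BRAF(+) AT, at a background of 0.045%. Of the 10, 4 had an unadjusted p under 0.05 there, as had 5656 of all probe sets. None was called between BRAF(-) BHL and BRAF(-) AT either, where 0% of probe sets passed, none of the 10 had an unadjusted p under 0.05, and 1563 probe sets had. The unmoderated model also called no probe set between PTC and BL or between the BRAF(-) groups.

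**Figure D4:**
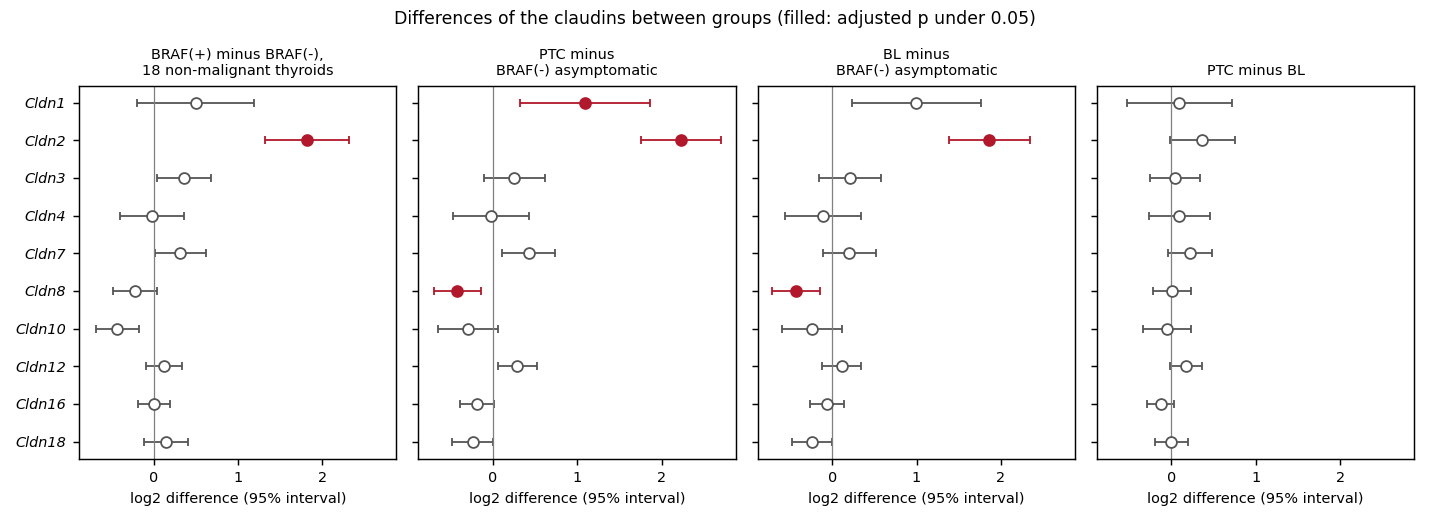
Log2 difference of each claudin (horizontal axis) with its 95% interval in 4 comparisons, each panel the first group minus the second, with filled red symbols for an adjusted p under 0.05. Cldn2 is the only claudin called for BRAF status (1.82) and the furthest from 0 in PTC (2.23) and BL (1.86) against BRAF(-) AT, whereas every interval for PTC minus BL includes 0.

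Cldn10, whose splice forms make either cation or anion pores, leaned towards lower signals in BRAF(+) thyroids without passing the threshold. It had 7.90, 7.37, 7.83 and 7.46 in BRAF(+) BHL and 7.80, 8.36, 8.23, 7.92 and 7.82 in BRAF(+) AT, against 8.78, 8.43, 8.32 and 7.78 in BRAF(-) BHL and 8.67, 8.62, 8.44, 7.84 and 8.08 in BRAF(-) AT. The difference was -0.43 (SE 0.12, 95% interval -0.69 to -0.17, adjusted p 0.058), with 2 of 9 BRAF(+) values below all BRAF(-) values. Among BHL it was -0.69 (SE 0.22, adjusted p 0.054). Its other probe set lay lower on average (7.25 against 8.05) and followed it closely (r = 0.985 over 38 mice), with a BRAF difference of -0.39 (adjusted p 0.061). Cldn10 passed the threshold in some settings, for example with array weights (adjusted p 0.023) and without mouse M_779 (0.024). After group means and sex were taken out it followed the mean of 11 thyrocyte markers (r = 0.66, and 0.56 without the 2 mice farthest from the median of that mean). With the mean of the salivary gland markers Cldn10 had r = 0.52, and 0.52 without the 2 farthest mice. With the macrophage mean it had r = -0.48, and -0.43 without the 2 farthest. In BRAF(+) non-malignant thyroids 2 of the 11 thyrocyte markers were lower and none higher, against 4.1% of all probe sets called. Their median difference was -0.07. The lower ones were the sodium-iodide symporter gene Slc5a5 (-1.13, adjusted p 0.031) and the iodotyrosine deiodinase gene Iyd (-0.33, adjusted p 0.0496). Nkx2-1 leaned the other way, with means of 10.12 in BRAF(+) BHL and 9.99 in BRAF(+) AT, against 9.60 and 9.76 in the BRAF(-) groups. The genes most like Cldn10 were Ppp1r1b, a phosphatase inhibitor (r = 0.84), and Gnptg (r = 0.77).

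Cldn3, Cldn4 and Cldn7 were not called in any comparison. Cldn3 and Cldn4 are sealing claudins that bind the enterotoxin of Clostridium perfringens, and Cldn7 lies along the lateral membrane, where it associates with Epcam. Cldn3 averaged 10.11 ± 0.29 in BRAF(+) and 9.71 ± 0.42 in BRAF(-) non-malignant thyroids (SD, n = 9 each), and its difference was 0.36 (95% interval 0.05 to 0.68, adjusted p 0.22). Cldn7 averaged 9.002 ± 0.35 in BRAF(+) and 8.66 ± 0.32 in BRAF(-) thyroids, with a difference of 0.32 (0.02 to 0.62, adjusted p 0.27). Cldn4 averaged 9.90 ± 0.30 in BRAF(+) and 9.87 ± 0.57 in BRAF(-) thyroids, with a difference of -0.02 (-0.40 to 0.36). In PTC against BRAF(-) AT, Cldn7 differed by 0.42 (SE 0.16) and just missed the threshold (adjusted p 0.053). The BRAF(-) AT mouse M_940 had the highest Cldn3 of its group, 10.57 against 9.29 to 9.61, and also the highest Cldn4, 10.97 against 9.14 to 9.77. Its skeletal muscle mean was 9.80, the highest of the group. Without this mouse Cldn3 was called for BRAF status (0.48, adjusted p 0.037).

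These 3 claudins varied together between mice. With group means and sex taken out, Cldn3 and Cldn4 had r = 0.67 (rho = 0.61), Cldn3 and Cldn7 r = 0.65 (rho = 0.66) and Cldn4 and Cldn7 r = 0.60 (rho = 0.54). Of all 45 pairs of claudins these had the smallest p-values for r, with adjusted p of 0.006, 0.005 and 0.006 by permutation within groups. Without the 2 mice farthest from the median of the first gene, r was 0.51, 0.64 and 0.53. Within the 10 PTC r was 0.54, 0.60 and 0.56, and within the 10 BL it was 0.47, 0.62 and 0.66. A further 2 pairs passed for r, Cldn4 with Cldn12 (r = 0.49, adjusted p 0.031, but rho = 0.40, adjusted p 0.091) and Cldn16 with Cldn18 (r = 0.52, rho = 0.56, adjusted p 0.031). The signals of Cldn16 and Cldn18 stayed below the array medians and may lie near background. By rank, Cldn3 and Cldn12 also passed (rho = 0.46, adjusted p 0.031, against r = 0.42, adjusted p 0.079), and Cldn10 ran against Cldn1 (rho = -0.55, adjusted p 0.0082) and Cldn4 (rho = -0.48, adjusted p 0.031), whereas for r these pairs did not pass (-0.41 each, adjusted p 0.067 and 0.081). The mean of the pan-epithelial markers followed Cldn4 (r = 0.66), Cldn7 (r = 0.52) and Cldn3 (r = 0.50). The macrophage mean had r = 0.50 with Cldn4, 0.31 with Cldn7 and 0.48 with Cldn3. The part of either mean in the correlations was not tested. The genes most like Cldn3 were Pwwp2b (r = 0.88) and Pafah1b3 (r = 0.86), those most like Cldn4 were Plp2 (r = 0.82) and the GTPase gene Rhoc (r = 0.81), and those most like Cldn7 were the actin-capping gene Capg (r = 0.84) and the adhesion gene Nectin2 (r = 0.81). All were picked as the highest of the named genes.

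**Figure D5:**
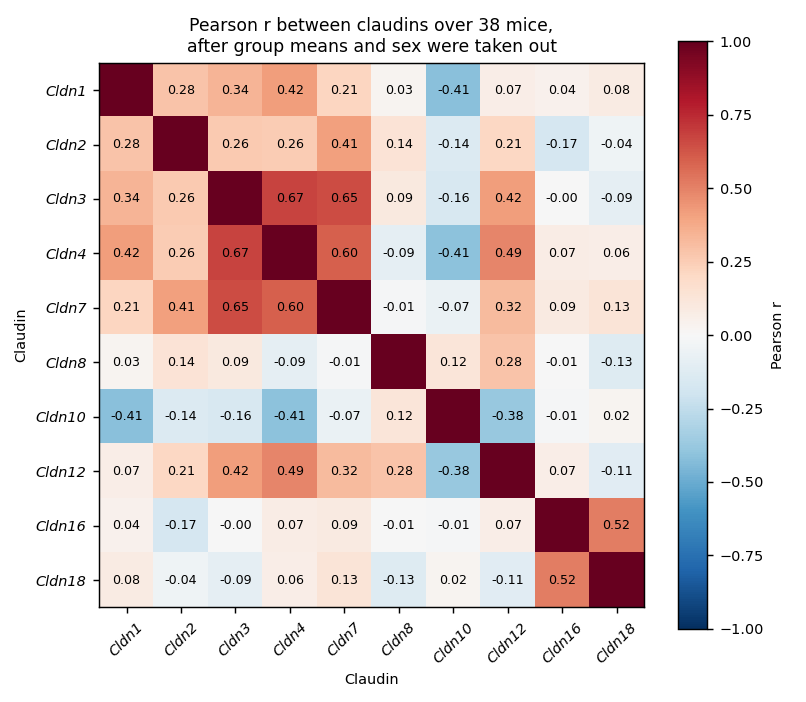
Pearson r between the claudins over 38 mice after group means and sex were taken out, with 1 cell per pair, red for positive and blue for negative values. Cldn3, Cldn4 and Cldn7 form a block with r of 0.60 to 0.67, and Cldn2 has an r of 0.41 or less with each of the others.

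Cldn12, an unusual claudin whose tail lacks the motif that binds scaffold proteins, differed little between groups. Its means were 7.54 ± 0.23 in PTC, 7.37 ± 0.20 in BL and 7.55 ± 0.21 in BRAF(+) BHL, against 7.23 ± 0.12 in BRAF(-) BHL, 7.23 ± 0.25 in BRAF(+) AT and 7.24 ± 0.17 in BRAF(-) AT (SD). PTC minus BRAF(-) AT was 0.29 (SE 0.12, adjusted p 0.073), and PTC minus BRAF(+) AT was 0.31 (SE 0.11, adjusted p 0.060). Cldn12 was most like Pdgfa, which encodes a platelet-derived growth factor (r = 0.81), and Tspan2 (r = 0.79).

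Cldn16, which with Cldn19 serves magnesium uptake in the kidney, and Cldn18, known from lung and stomach, stayed below the median signal of the arrays. Cldn16 ran from 4.25 to 5.08 and Cldn18 from 4.68 to 5.79 over the 38 mice. Their BRAF differences in the non-malignant thyroids were 0.00 (95% interval -0.19 to 0.20) and 0.15 (-0.11 to 0.40). Against BRAF(-) AT, Cldn16 differed by -0.19 in PTC (adjusted p 0.18) and -0.06 in BL (0.71). Cldn18 differed by -0.24 in PTC (adjusted p 0.15) and -0.24 in BL (0.19), with 8 of 10 values in each below every BRAF(-) AT value. PTC minus BRAF(+) AT was -0.28 for Cldn18 (adjusted p 0.10). Signals this low may lie near background, for which the deposited values hold no measure. The genes most like Cldn16 were Apc2 (r = 0.71) and Krtap11-1 (r = 0.70), and those most like Cldn18 were Hoxa11 (r = 0.76) and Olfr550 (r = 0.76). Cldn8 had the weakest likeness, to Id4 (r = 0.69) and Txndc16 (r = 0.68).

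A list of other claudins had 17 measured genes, among them Tmem114 and the claudin-domain genes Cldnd1 and Cldnd2. For BRAF status in the non-malignant thyroids 1 of the 17 was called, against 4.1% of all probe sets. Cldn9, known from the inner ear, averaged 7.12 ± 0.23 in BRAF(+) and 7.65 ± 0.32 in BRAF(-) thyroids (SD, n = 9 each) and was lower by an estimate of -0.53 (SE 0.12, adjusted p 0.022). Between PTC and BRAF(-) AT 5 of the 17 were lower and none higher, with a median of -0.16 against -0.02 over all probe sets, of which 18.8% were called. These were Cldn6 (-1.08, adjusted p 0.0013), Cldn9 (-0.64), Cldn14 (-0.34), Cldn19 (-0.38) and Cldn22 (-0.54). Between BL and BRAF(-) AT 2 were lower, Cldn9 (-0.62) and Cldn22 (-0.44), against 11.5% of all probe sets. Between BRAF(+) and BRAF(-) BHL 1 was lower, Cldn6 (-0.97, adjusted p 0.040), against 6.62% of all probe sets. Nothing is read from these counts about the list. All but Cldn9 were named after their values were seen.

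Other junction genes differed with BRAF status in the non-malignant thyroids as follows, where 4.1% of all probe sets were called. None of 12 genes of occludin, tricellulin and the JAM family was called, and none of 15 epithelial and mesenchymal regulators. Of 22 scaffold and polarity genes 1 was called, Patj, a partner in the Crumbs complex, which was higher by 0.41 (SE 0.09, adjusted p 0.012) with 8 of 9 BRAF(+) values above all BRAF(-) values. Of 13 adherens junction genes 3 were higher: the nectin genes Nectin3 (0.75, adjusted p 0.037), Nectin4 (0.47, adjusted p 0.033) and Nectin1 (0.39, adjusted p 0.032), whose products bind across the cell contact. Of 11 desmosome genes 2 were higher, the desmosomal cadherin gene Dsc2 (0.74, SE 0.13, adjusted p 0.0033) and Jup, which encodes plakoglobin (0.52, adjusted p 0.019). For Dsc2, 7 of 9 BRAF(+) values lay above all BRAF(-) values. No gene of these lists differed by as much as Cldn2 (1.82).

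Between BRAF(+) and BRAF(-) BHL, where 6.62% of all probe sets were called, 4 of the 22 scaffold and polarity genes were higher and 2 lower, 6 of 13 adherens junction genes were higher and none lower, 2 of 11 desmosome genes were higher and none lower, and 2 of 12 genes of the occludin list were lower, Ocln itself (-0.53, adjusted p 0.044) and Jam3 (-0.74, adjusted p 0.0070). The higher scaffold genes were Tjp1, which encodes the zonula occludens protein ZO-1 (0.78, adjusted p 0.0055), Patj (0.66), Cgnl1 (0.65) and the cingulin gene Cgn (0.60), and the lower ones were Tjp3 (-0.70) and Prkcz (-0.58). In the same comparison 4 of 5 brown adipocyte markers were lower (median -2.54) and 2 of 5 C cell markers (median -0.78), and their part in these counts was not tested. These genes, and those named for PTC in the next comparison, were picked after their values were seen.

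Between PTC and BRAF(-) AT the counts were larger, with 18.8% of all probe sets called. Of the scaffold and polarity genes 8 of 22 were higher and 3 lower (median 0.16), of the adherens junction genes 7 of 13 higher and 1 lower (median 0.43), and of the desmosome genes 3 of 11 higher and none lower (median 0.16). Dsc2 was higher by 1.26, Nectin3 by 1.04 and Tjp1 by 0.73 (adjusted p 0.00044), while Tjp3 was lower by an estimate of -0.61. Of occludin, tricellulin and the JAM family 2 of 12 were higher and 1 lower (median 0.03). Between BL and BRAF(-) AT, where 11.5% of all probe sets were called, 5 of 22 scaffold and polarity genes were higher and 1 lower, 6 of 13 adherens junction genes were higher and none lower, and 3 of 11 desmosome genes were higher and none lower. In AT alone, where 0.256% of all probe sets were called, no gene of these lists was called between BRAF(+) and BRAF(-) mice.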

How the data were processed

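The authors deposited a table of log2 signals made by robust multi-array averaging (RMA), with 35556 probe sets for 38 mice, and that scale was kept. No depth applies to arrays, and the number of mice limits the precision. The labels name a 3′ IVT labelling kit. Gene names came from the platform annotation: 21789 probe sets carry 1 symbol, 1621 several and 12146 none listed. No column belongs to another series (0). Which mice were littermates is not given in the sources used here.

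Models were fitted with limma 3.58.1 in R 4.3.3 on all probe sets, and p-values were adjusted over all of them by the method of Benjamini and Hochberg, with calls at 0.05. BRAF status was tested in 18 non-malignant thyroids with lesion type and sex in the model, and other comparisons in a model of the 6 groups and sex over 38 mice. The methods' filter on flat probe sets (1.5-fold from the median in 20% of arrays) was used only as an alternative. Correlations are of residuals from the second model, with 100000 permutations within groups for the 45 pairs of claudins. Promoters were read with Python 3.11.15 from a RefSeq table. The models were tested on simulated data.

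The claudins and gene lists were chosen with earlier results of these data known. Genes named were the 10 claudins, up to 4 called genes per junction list for BRAF status, and the 2 genes most like each claudin. The comparison of males with females, 3 alternatives (the macrophage mean, the parathyroid and airway means, and leaving out mice M_523 and M_779) and the further genes named as such were added after values were seen. Some genes of the lists are not reported here.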

Additional observations from a re-analysis of the deposited data

Results flagged for a closer look

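For each of the 10 claudins in each of the 6 groups, 60 in all, the highest and the lowest mouse were set against the rest, and 2 mice stood apart. By chance about 1 in 20 groups would show such a mouse. In BRAF(-) AT, female mouse M_940 had a Cldn3 signal of 10.57, against 9.29 to 9.61 in the other 4, and its gap to the nearest mouse was 0.752 of the range of the group. In PTC, male mouse M_686 had a Cldn8 signal of 8.10, against 8.88 to 9.54 in the other 9, with a gap of 0.545 of the range.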

How the results depend on the processing

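The Cldn2 calls in PTC and in BL against BRAF(-) AT and in BHL were made in all 14 other settings and without each mouse in turn. Of the 10 claudins, the count called for BRAF status in the non-malignant thyroids (1) was 2 with single-symbol probe sets and without mice M_523 and M_779, 3 with array weights, and 0 with the muscle and adipocyte means or the parathyroid and airway means as covariates. For PTC against BRAF(-) AT (3) it was 1 in females only and with the epithelial mean, the muscle and adipocyte means or the macrophage mean. For BL against BRAF(-) AT (2) it was 1 without the sex term, in females only, in only the groups compared, and with the epithelial, muscle and adipocyte, macrophage, or parathyroid and airway means. For BHL (1) it was 2 with single-symbol probe sets or centred arrays. For AT (1) it was 0 in females only, in only the groups compared, and with the muscle and adipocyte or macrophage means. For BRAF(+) BHL against BRAF(+) AT (0) it was 1 with the filter on flat probe sets. For PTC against BRAF(+) AT (1) it was 0 in females only, in only the groups compared and without mice M_523 and M_779, and 2 with the parathyroid and airway means. Leaving out each mouse gave 1 to 2 for BRAF status, 1 to 4 for PTC and 1 to 2 for BL against BRAF(-) AT, 1 to 2 for BHL, 0 to 1 for AT, 0 to 1 for BRAF(+) BHL against BRAF(+) AT and 0 to 2 for PTC against BRAF(+) AT. With the macrophage mean as a covariate Cldn1 in PTC against BRAF(-) AT changed sign (-0.24). The cause of these changes was not tested. The filter on flat probe sets kept 4388, among them Cldn1 and Cldn2 alone of the 10. No paired analysis was possible because mouse numbers are not shared between groups.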
